A study of Mus musculus with 2 samples.

Results

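The microRNA genes Mir10a, Mir10b, Mir196a-1, Mir196a-2 and Mir196b lie inside the Hox clusters of the mouse genome. They were found by matching the gene identifiers of the deposited count files to GENCODE M21 by symbol, and all 5 members were among the 2202 microRNA genes counted. Small RNA was profiled in heart tissue of 2-month-old male B6CASTF1/J mice, an F1 cross between the C57BL/6J laboratory strain and CAST/EiJ, with no treatment named. There were 2 libraries in 1 group, replicate 1 and replicate 2. The labels number them as different males but give both the same donor identifier. A test between them sets the difference between these 2 libraries against counting noise, and does not measure the spread between mice. Heart tissue holds muscle, vessel, connective tissue and blood cells, so in these bulk samples fewer cells of a type and less RNA per cell cannot be told apart. Counts include only gene-strand reads, and CPM are counts per 1000000 such reads over all microRNA genes.

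Hox genes are transcription factors whose order along each cluster mirrors their order of expression along the body axis. Genes at the 3′ side act from more anterior levels and genes at the 5′ side act in the posterior trunk, limbs and tail. The microRNAs inside the clusters are transcribed together with neighbouring Hox genes. The miR-196 microRNAs are known to bind Hox messages, with cleavage of the Hoxb8 message as the textbook case. miR-10a is known from endothelial cells, where it restrains inflammatory signalling, and miR-10b from the growth of new vessels. The question addressed by comparing Mir10 with Mir196 is how far the counts of a heart are placed toward the 3′ or the 5′ side of the clusters.

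The members were spread over the 4 clusters, and positions are given on mm10. Mir10a lies on the plus strand of chromosome 11 from 96317165 to 96317274, with Hoxb5 on its 5′ side and the coding sequence of Hoxb4 1495 bases away on its 3′ side, and no gene spans it on its strand. Mir10b lies on the plus strand of chromosome 2 from 74726070 to 74726137, in an intron of annotated transcripts of Hoxd4 and Hoxd3, 1141 bases before the Hoxd4 coding sequence. The Mir196 genes sit nearer the 5′ side, each beside a Hox gene of group 9. Mir196a-1 lies on the plus strand of chromosome 11 from 96265164 to 96265265, between Hoxb13 and Hoxb9, and is spanned by no gene on its strand. Mir196a-2 lies on the plus strand of chromosome 15 from 102973350 to 102973434, between the coding sequences of Hoxc10 and Hoxc9 and inside an intron of a long Hoxc5 transcript. Mir196b lies on the minus strand of chromosome 6 from 52230081 to 52230165, between the coding sequences of Hoxa10 and Hoxa9, and overlaps an exon of a non-coding Hoxa9 transcript. Mir10a and Mir196a-1 share a cluster, at 122.8 and 70.8 kb from the start of Hoxb13. No annotated gene overlaps any member on the opposite strand, and the count of reads on the opposite strand was 0 for every member in both libraries.

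**Figure D1:**
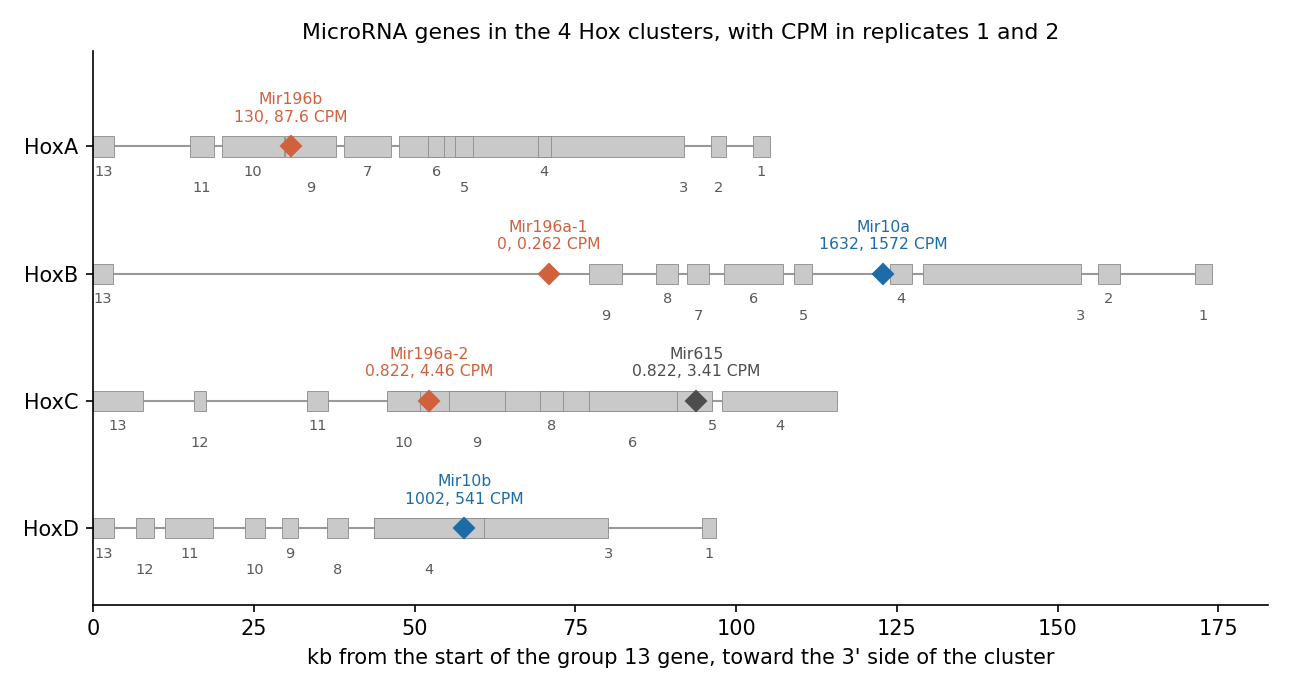
Map of the HoxA, HoxB, HoxC and HoxD clusters, with distance in kb from the start of the group 13 gene toward the 3′ side on the x axis. Grey boxes are Hox genes with their group number, diamonds are microRNA genes, and the values above them are CPM in replicates 1 and 2. Mir10a in HoxB, at 1632 and 1572 CPM, and Mir10b in HoxD, at 1002 and 541 CPM, lie beside group 4 genes and carry the highest values on the map, while the Mir196 genes lie beside group 9 genes.

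The mature sequences are shown because they set both the targets of these microRNAs and which reads could be counted. They come from RefSeq on GRCm38.p6, 5′ to 3′, with the seed (bases 2 to 8, which pair with target messages) in capitals.
mmu-miR-10a-5p: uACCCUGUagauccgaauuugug
mmu-miR-10b-5p: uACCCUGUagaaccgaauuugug
mmu-miR-196a-5p: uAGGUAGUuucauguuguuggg
mmu-miR-196b-5p: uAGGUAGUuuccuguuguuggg
The members fell into 2 seed groups. miR-10a-5p and miR-10b-5p share the seed ACCCUGU, and no other mature sequence among the 1738 in the RefSeq table has it. They differ by 1 base, U12A, counted from the 5′ end of miR-10a-5p. miR-196a-5p and miR-196b-5p share the seed AGGUAGU, again with no other mature microRNA, and differ by A12C, counted from the 5′ end of miR-196a-5p. All 9 let-7 and miR-98 5′-arm sequences have the seed GAGGUAG. Its last 6 bases are the first 6 of the miR-196 seed, so the groups read nearly the same letters 1 base apart.

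The hairpins show which stretches can tell the Mir196 copies apart, with both mature arms in capitals.
Mir196a-1: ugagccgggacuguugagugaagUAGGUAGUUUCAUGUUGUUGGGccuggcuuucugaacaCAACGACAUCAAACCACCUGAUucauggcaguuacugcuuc
Mir196a-2: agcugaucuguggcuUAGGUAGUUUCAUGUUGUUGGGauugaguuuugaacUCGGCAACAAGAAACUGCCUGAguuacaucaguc
Mir196b: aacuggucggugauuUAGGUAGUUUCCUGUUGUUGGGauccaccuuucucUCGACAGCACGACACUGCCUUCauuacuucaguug
The longest stretch shared by Mir196a-1 and Mir196a-2 was 22 bases, exactly the 5′ arm of miR-196a. Reads mapped to several places were counted in no gene, so a full-length miR-196a-5p read without flanking bases adds to neither copy. Only reads that reach outside this stretch, such as those of the 3′ arms, can enter the counts of Mir196a-1 and Mir196a-2. The longest stretch Mir196b shared with any other counted hairpin was 12 bases. Its mature 5′ arm matches 1 hairpin exactly and 3 hairpins within 1 mismatch.

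Mir10a and Mir10b are each matched by their own mature 5′ arm alone, and by each other's within 1 mismatch. Their hairpins are shown because the shared stretch is short.
Mir10a: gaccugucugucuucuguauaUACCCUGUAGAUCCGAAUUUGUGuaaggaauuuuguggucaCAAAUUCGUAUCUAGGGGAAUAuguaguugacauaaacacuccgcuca
Mir10b: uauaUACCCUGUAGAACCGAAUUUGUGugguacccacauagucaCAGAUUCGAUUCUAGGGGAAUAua
They share at most 15 bases, from before the mature 5′ end to the base before the difference. Within the mature 5′ arm, a read that carries the differing base therefore matches only 1 of the pair exactly. A fragment of the arm that ends before this base matches both. Whether such reads have a single place on the genome was not checked. How many mismatches the placement of reads allowed is not given in the sources used here, and its part in the split between Mir10a and Mir10b was not tested.

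Depth was similar in both libraries. They held 3650782 and 3810675 gene-strand microRNA reads, and 48.0% and 46.4% of all reads were mapped to several places. The floor set by a count of 0 (3 counts) was 0.822 CPM in replicate 1 and 0.787 CPM in replicate 2, for reads with a single place. These floors, and the exact Clopper-Pearson 95% intervals below, cover counting error only. Of the heart muscle markers 3 of 3 were detected: Mir208a was at 1329 and 4265 CPM, Mir499 at 2601 and 2507 CPM, and Mir208b at 24.7 and 118 CPM. Detection required at least 2 CPM in each library, which 337 of the 2202 genes reached.

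Mir10a was the most counted of the Hox cluster microRNA genes. Its counts were 5959 and 5992 in the 2 libraries, which is 1632 CPM (95% interval 1591 to 1674) and 1572 CPM (1533 to 1613). The mean was 1602 CPM ± 42.3 (SD, n = 2), the 52nd highest of the 2202 genes. Its level was nearly the same in both libraries. Ranks and shares of all microRNA counts rest on reads with a single place, so genes with several copies can stand too low.

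Mir10b was second and varied more. It had 3658 and 2060 counts, which is 1002 CPM (95% interval 970 to 1035) in replicate 1 and 541 CPM (517 to 564) in replicate 2. The mean was 771 CPM ± 326 (SD, n = 2), rank 73. Replicate 1 was the higher library, and even there Mir10b stayed below the lower value of Mir10a.

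Mir196b carried nearly all counted Mir196 reads. It had 474 and 334 counts, which is 130 CPM (95% interval 118 to 142) and 87.6 CPM (78.5 to 97.6). The mean was 109 CPM ± 29.8 (SD, n = 2), rank 143, below Mir10b in both libraries with no overlap.

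Mir196a-2 and Mir196a-1, whose full-length mature 5′ arm adds to neither, had few counts, and only Mir196a-2 in replicate 2 lay clearly above the floor. Mir196a-2 had 3 and 17 counts, or 0.822 CPM (95% interval 0.169 to 2.40) and 4.46 CPM (2.60 to 7.14). Mir196a-1 had 0 and 1 counts, and the 95% interval for the count of 0 in replicate 1 reached 1.01 CPM. These values bound the unique parts of the hairpins only and do not rank miR-196a against miR-196b. Of the Mir196 counts, Mir196b held 99.4% in replicate 1 (95% interval 98.2 to 99.9) and 94.9% in replicate 2 (92.0 to 96.9). Of the 5 members 3 were detected, Mir10a, Mir10b and Mir196b, and limits of 1, 5 or 10 CPM gave the same count.

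The order of CPM was Mir10a, Mir10b, Mir196b, Mir196a-2 and Mir196a-1 in both libraries. The ranges over the libraries did not overlap between neighbours in this order. Counting intervals of Mir196a-2 and Mir196a-1 overlapped in replicate 1, so those neighbours are not separated there. Mir615, a further microRNA gene of the HoxC cluster in an intron of Hoxc5, had 3 and 13 counts, or 0.822 and 3.41 CPM. Its Hox neighbours, Hoxc6 and Hoxc4, are of lower group number than those of the Mir196 genes, and its counts were at the level of Mir196a-2. The files hold 7 rows inside the 4 clusters, and the remaining row, Gm44463 between Hoxd9 and Hoxd8, had 0 counts in both libraries.

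**Figure D2:**
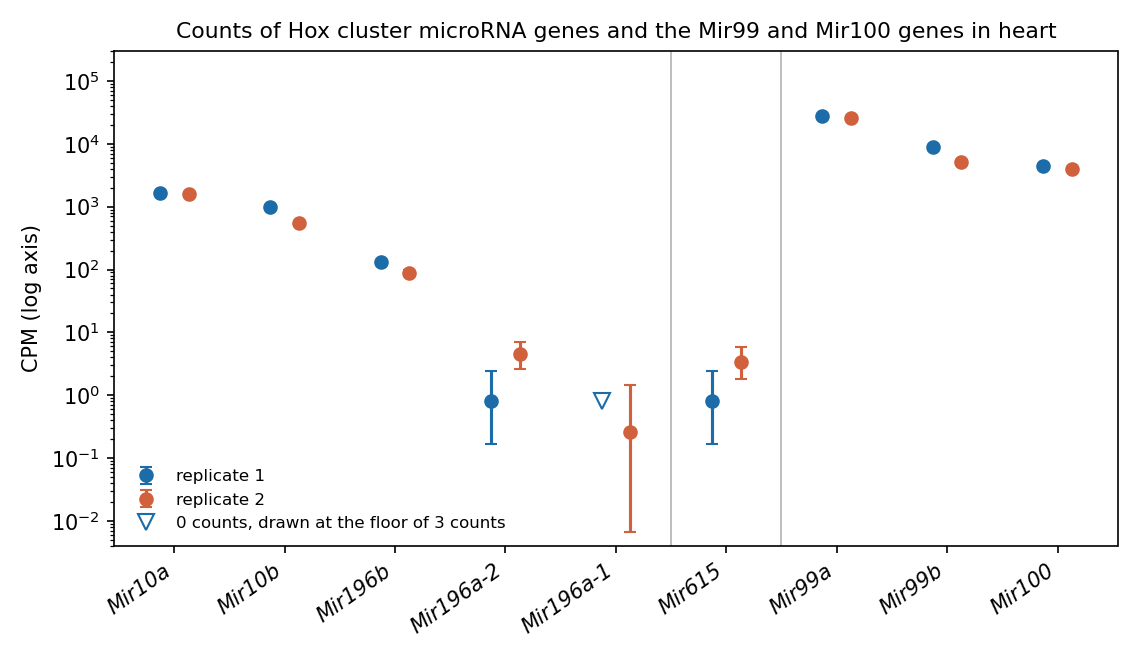
CPM on a log axis for each gene on the x axis, with replicate 1 in blue and replicate 2 in orange; bars are exact 95% intervals for counting error, hidden by the points where narrow. The Mir10 genes sit between 541 and 1632 CPM, Mir196b near 109 CPM, and the Mir196a genes and Mir615 under 5 CPM, while the Mir99 and Mir100 genes at the right exceed every member.

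Together the Mir10 genes exceeded the Mir196 genes by about 20 times. In replicate 1 the sums were 9617 and 477 counts, a ratio of 20.1, and in replicate 2 they were 8052 and 352 counts, a ratio of 22.8. The mean log2 ratio was 4.42 ± 0.13 (SD, n = 2) with 0.5 CPM added to each sum. No exact permutation test of 2 libraries can fall below a two-sided p of 0.5, so this ratio was not tested. The Mir196 genes held 4.73% of the members' counts in replicate 1 (95% interval 4.32 to 5.16) and 4.19% in replicate 2 (3.77 to 4.64). Reads of the shared miR-196a arm are missing from this sum, so the ratio is that of counted reads. Against Mir196b alone, which has no such stretch, the Mir10 sum gave ratios of 20.2 and 24.0. Each Mir10 gene also exceeded Mir196b separately: Mir10a by 12.5 and 17.8 times, and Mir10b by 7.69 and 6.14 times. The Hox messages themselves were not measured, so these values place microRNA counts on the clusters and not the cells of the heart on the body axis.

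Within the miR-10 seed group, Mir10a exceeded Mir10b in both libraries, by an amount that differed between them. The ratio was 1.63 in replicate 1 and 2.91 in replicate 2, and on the log2 scale it averaged 1.12 ± 0.59 (SD, n = 2). Mir10a held 62.0% of the pair's counts in replicate 1 (95% interval 61.0 to 62.9) and 74.4% in replicate 2 (73.4 to 75.4), and these intervals do not overlap. Both mature 5′ arms are 23 bases long, so CPM compares equal lengths if the counted reads are these full arms. The counts do not give the arm or the length of the reads. The annotated hairpins are not equal, at 110 bases for Mir10a and 68 for Mir10b. Per base of hairpin, Mir10a and Mir10b were at 14.8 and 14.7 CPM in replicate 1 and at 14.3 and 7.95 CPM in replicate 2. On that scale the pair was level in replicate 1 and the log2 ratio was 0.85 in replicate 2.

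Outside the Hox clusters, miR-99a, miR-99b and miR-100 are known sequence relatives of miR-10, and are shown because their seed differs.
mmu-miR-99a-5p: aACCCGUAgauccgaucuugug
mmu-miR-99b-5p: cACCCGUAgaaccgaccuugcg
mmu-miR-100-5p: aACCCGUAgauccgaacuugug
Their seed ACCCGUA shares its first bases with ACCCUGU, and miR-100-5p and miR-10a-5p share a stretch of 11 bases that begins inside both seeds, 1 base apart. These relatives were counted far more often than the members. Mir99a was at 27786 and 25498 CPM, Mir99b at 8878 and 5168 CPM, and Mir100 at 4411 and 3919 CPM. Their sum exceeded that of the Mir10 genes by 15.6 and 16.4 times, a mean log2 ratio of 4.00 ± 0.05 (SD, n = 2). The Mir10 genes thus held 6.03% (95% interval 5.91 to 6.14) and 5.76% (5.64 to 5.88) of the counts of these 5 genes. Of all microRNA counts, the 5 members of the Hox clusters held 0.276% and 0.221%, a mean of 0.249% ± 0.040 (SD, n = 2).

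Between the libraries, Mir10b and Mir196b were lower in replicate 2 while Mir10a barely moved. Each gene past edgeR's filterByExpr was tested over its counts by a two-sided exact binomial test, set against the ratio of TMM library sizes and Benjamini-Hochberg adjusted over 320 genes. Mir10b had a log2 ratio of replicate 2 to replicate 1 of -0.90 (exact binomial test, adjusted p = 2.54e-118). Mir196b had -0.58 (exact binomial test, adjusted p = 4.50e-08) and Mir10a -0.07 (exact binomial test, adjusted p = 0.0192). All 3 detected members passed as lower, against 64.4% of all tested genes that passed in either direction and 33.8% that passed as lower. The test knows only counting noise, and most genes passed it. The median log2 ratio was -0.58 over the 3 members and 0.02 over all tested genes, and the median size was 0.436 over all. Mir10b differed more than 75.2% of the tested genes in size, Mir196b more than 60.2% and Mir10a more than 9.09%. The coefficient of variation between the libraries, which edgeR names biological, was 0.370 over the 320 genes. Because both libraries carry the same donor identifier, biological and technical spread cannot be told apart in it. The call on Mir10a was lost with plain library totals, at an adjusted p of 0.0633 in the exact binomial test, and its sign turned without the low-count filter, where the log2 ratio was 0.01.

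**Figure D3:**
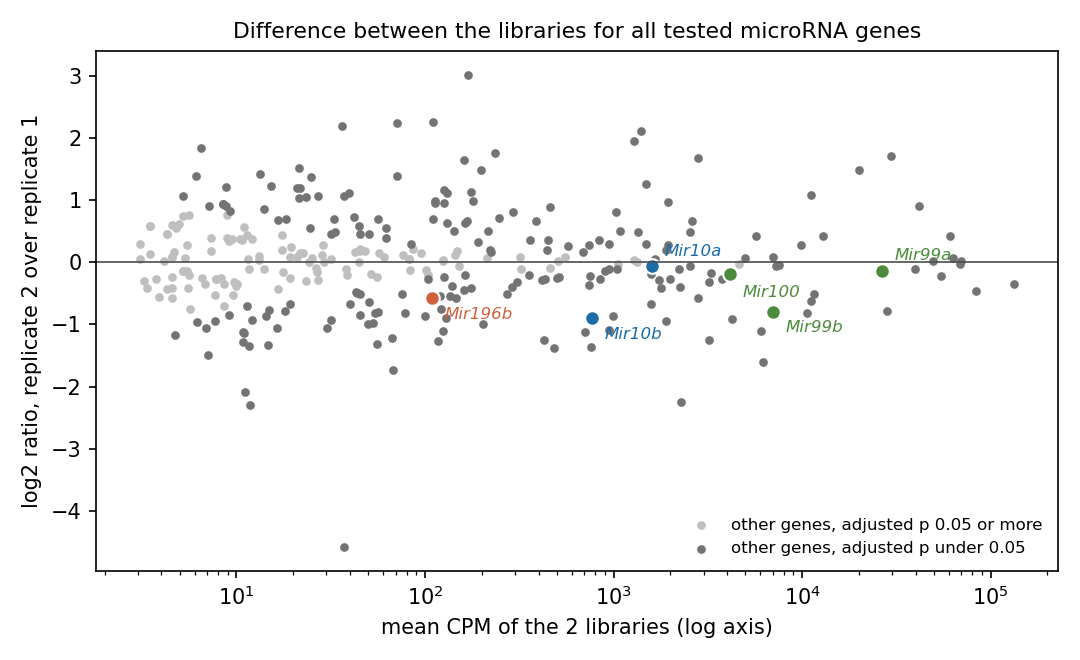
Log2 ratio of replicate 2 to replicate 1 against mean CPM (log axis) for the 320 tested genes, with genes past an adjusted p of 0.05 in dark grey. Mir10a lies at -0.07, close to 0 (0.01 without the low-count filter), while Mir10b at -0.90 and Mir196b at -0.58 lie below it within the cloud of other genes.

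Mir196a-2 and Mir615, the counted microRNA genes of the HoxC cluster, had few counts, with more of them in replicate 2. Mir196a-2 had 3 and 17 counts, a CPM ratio of 5.43 (95% interval 1.57 to 28.9), and Mir615 had 3 and 13, a ratio of 4.15 (1.14 to 22.7). Both were too low for the count filter. Without that filter 29.5% of 722 genes passed in either direction, and 118 genes passed as higher. Mir196a-2 (exact binomial test, adjusted p = 0.00590) and Mir615 (exact binomial test, adjusted p = 0.0433) were among the higher. Mir10b and Mir196b passed as lower, while Mir10a and Mir196a-1 did not pass. Mir302b and Mir5133 lie outside the Hox clusters and were picked for levels near Mir196a-2. They also had more in replicate 2, at 0.822 and 3.94 CPM and at 0.548 and 4.20 CPM.

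Markers of several cell types also differed between the libraries, and their part in the members' differences was not tested. The leukocyte markers (4 of 4 detected) had summed levels of 8970 and 7190 CPM in replicates 1 and 2, and the erythroid markers (2 of 2) of 2336 and 1693 CPM. All 4 leukocyte genes and the erythroid Mir451a, at 1925 and 1217 CPM, were lower in replicate 2, as Mir10b and Mir196b were, while the erythroid Mir144 was higher, at 411 and 477 CPM. The liver microRNA Mir122 was at 142 and 97.9 CPM, and the epithelial markers (6 of 7) summed to 380 and 315 CPM. Within the epithelial list, Mir200c and Mir203 held most counts and were lower in replicate 2, while Mir429, at 5.20 and 12.3 CPM, was higher, and Mir200b and Mir205 had values of 9.59 and 13.1 CPM and of 1.92 and 6.82 CPM. Lists with higher sums in replicate 2 were heart muscle at 3954 and 6890 CPM, through Mir208a and Mir208b, endothelial Mir126a at 52212 and 70228 CPM, and fibroblast (2 of 4 detected) at 541 and 2290 CPM. The fibroblast sum was nearly all Mir214, at 519 and 2269 CPM, while Mir199b was at 16.2 and 18.6 CPM and Mir199a-2 at 5.20 and 1.57 CPM. Mir199a-1 had 0 and 1 counts, and all these Mir199 values cover only reads with a single place. The skeletal muscle enriched list (2 of 2) was at 43.0 and 308 CPM, nearly all of it Mir206 in replicate 2, and the kidney linked list (3 of 3) at 39.4 and 86.9 CPM. The smooth muscle list (2 of 2) summed to 54611 and 53284 CPM, most of it Mir143 at 49081 and 50331 CPM, while Mir145a was lower in replicate 2, at 5530 and 2953 CPM, a log2 ratio of -0.92 beside -0.90 for Mir10b. None of the 5 matched neuronal markers was detected in both libraries, and Mir9-2, Mir124a-2 and Mir124a-3 had 0 counts. The neuronal list summed to 27.9 and 0.525 CPM, nearly all of it Mir9-3 in replicate 1, at 27.7 CPM. Because reads mapped to several places entered no gene, low counts of marker genes with several copies do not show absence of their microRNA.

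The genes nearest in level to each member were those with the smallest Euclidean distance of log2(CPM + 1) over the 2 libraries, a measure that rests on 2 points per gene. Nearest to Mir10a were Mir146 at 1663 and 1477 CPM, Mir328 at 1621 and 1703 CPM, and Mirlet7c-2 at 1902 and 1573 CPM. Nearest to Mir10b were Mir181b-2 at 969 and 451 CPM, the leukocyte gene Mir142 at 1091 and 428 CPM, and Mir342 at 1278 and 604 CPM. Nearest to Mir196b were Mir122, Mir433 at 113 and 94.2 CPM, and Mir487b at 151 and 91.1 CPM. Mir196a-2 was nearest to Mir302b, Mir5133 and Mir615, all under 5 CPM in both libraries.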

How the data were processed

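Small RNA of 2 heart libraries was sequenced, per the labels with a size range under 30. The deposited files hold raw read counts per microRNA gene. Per the text deposited with them, reads were placed on mm10 with GENCODE M21; the aligner and its settings are not given in the sources used here. The deposited counts come without regard to strand, on the gene's strand (used here) and on the opposite strand. The 4 rows that name no gene held 64.8% and 63.6% of reads and stayed out of library sizes and tests. All 2202 identifiers matched M21. CPM, log2 ratios (0.5 CPM added), exact Clopper-Pearson intervals and exact binomial tests used Python 3.11.15 and scipy 1.17.1. TMM sizes, filterByExpr and the dispersion (intercept only) used edgeR 4.0.16 in R 4.3.3, and alternative size factors DESeq2 1.42.0. The binomial test was tried on simulated data with counting noise only, so that trial does not cover further spread between libraries. Shared stretches were searched among the 2202 annotated hairpins, since no genome sequence was used. RefSeq mature sequences were found for all members and relatives. Named were the members, Mir615, Mir99a, Mir99b, Mir100, the 3 genes nearest in level to each member at a mean of 2 CPM or more, and marker lists. Members and lists were chosen with earlier results of these data known.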

Additional observations from a re-analysis of the deposited data

How the results depend on the processing

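Under the alternatives run, the order of Mir10a, Mir10b and Mir196b did not change. With counts taken without regard to strand, the smaller denominator raised the mean of Mir10a from 1602 to 2078 CPM, that of Mir196b from 109 to 141 CPM, and the share of the 5 members from 0.249% to 0.323%. The mean of Mir10a was 1413 CPM over all uniquely mapped reads and 1849 CPM with Mir378a left out of the denominator. Per base of hairpin, the mean log2 ratio of Mir10a to Mir10b fell from 1.12 to 0.43, by the construction of that scale. Leaving out each replicate gave 0.70 to 1.54 for that ratio, 4.33 to 4.51 for Mir10 against Mir196, and 541 to 1002 CPM for Mir10b. Mir10a's log2 ratio between the libraries turned to 0.0100 without the low-count filter (exact binomial test, adjusted p = 0.917), and its call was lost with plain totals, with a 10 CPM minimum and without strand, with adjusted p between 0.0633 and 0.271. Mir10b and Mir196b kept sign and call under each setting. Genes that differ numbered 176 to 213. Ratios to Mir196b alone were added after the data were seen. No paired analysis was possible because the design has 1 group. Depth limits Mir196a-1, Mir196a-2 and Mir615, each with at most 17 counts, and more depth would not recover reads of the shared miR-196a arm.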

Other observations

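Mir9-3, known from neurons and chosen here after its values were seen, was at 27.7 CPM in replicate 1 and 0.262 CPM in replicate 2, from 101 reads and 1 read. Its copy Mir9-1 had 1 read in each library and Mir9-2 had none. Only reads with a single place were counted, so these values do not rank the copies against each other.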
